A study of Mus musculus with 2 samples.

Results

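Genes of mitosis and of the G2/M transition were read in primary mouse cells of the retinal pigment epithelium (RPE), a pigmented sheet that supports the photoreceptors, with and without interferon gamma (IFNg). The list holds 43 genes named for their part in cell division. It was drawn up by gene name, with no threshold on a value, but with earlier results of these data known. Of these, 42 matched at least 1 probe set that names the gene alone, out of 18193 genes named in that way on the array, and they carried 99 of its 45037 non-control probe sets. Ccnb1, the gene for cyclin B1, matched no such probe set, so its signal was not analysed here.

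There were 2 cultures with 1 oligonucleotide array each. One was primary RPE given IFNg, a cytokine secreted by activated lymphocytes, at 100 U/ml over 24 h, and the other was primary RPE without IFNg. Both had been grown for 14 days in DMEM with 20% fetal bovine serum, both spent a night in serum-free medium before RNA was taken, and both were described as 95% cytokeratin-positive. The labels do not say how the serum-free night and the IFNg overlapped, nor from how many animals or of which strain, age or sex the cells came. With no replicate culture there is no test and no p-value, and higher and lower describe these 2 arrays.

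A cell enters mitosis when cyclin-dependent kinase 1 is switched on by A- and B-type cyclins and by CDC25 phosphatases. The spindle then attaches to the kinetochores under the watch of the spindle checkpoint, the anaphase-promoting complex destroys securin and cyclin B, and central spindle proteins guide the cut between the daughter cells. Most of these genes are transcribed late in the cell cycle, so that their mRNA is plentiful in dividing cells and scarce in resting ones. In the adult eye the RPE rests, while RPE cells in culture with serum can divide.

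The late cell-cycle genes share promoter elements, and these were looked for first. The rule took members above the floor on both arrays with a single promoter window in the RefSeq table of GRCm38.p6. Among these, the promoters with the 3 highest and the 3 lowest log2 ratios are printed, to show how the elements lie at either end. Smc4, Tpx2 and Aurkb had ratios further out but no window, and Bub1 was at the floor without IFNg. Each window runs from 250 bases before the gene's start to 50 bases after it, 5′ to 3′ on the gene's strand. Capitals mark TTTGAA, the cell-cycle genes homology region (CHR) to which the DREAM and MuvB complexes bind, and CCAAT, the box bound by the factor NF-Y, each on either strand.
Nusap1, chr2:119618048-119618347, plus strand: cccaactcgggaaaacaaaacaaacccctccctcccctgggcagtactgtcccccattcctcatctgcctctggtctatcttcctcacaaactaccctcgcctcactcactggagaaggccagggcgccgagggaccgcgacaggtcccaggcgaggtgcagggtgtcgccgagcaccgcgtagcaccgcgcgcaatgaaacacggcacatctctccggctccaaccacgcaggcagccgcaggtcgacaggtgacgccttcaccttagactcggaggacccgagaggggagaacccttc
Smc2, chr4:52438971-52439270, plus strand: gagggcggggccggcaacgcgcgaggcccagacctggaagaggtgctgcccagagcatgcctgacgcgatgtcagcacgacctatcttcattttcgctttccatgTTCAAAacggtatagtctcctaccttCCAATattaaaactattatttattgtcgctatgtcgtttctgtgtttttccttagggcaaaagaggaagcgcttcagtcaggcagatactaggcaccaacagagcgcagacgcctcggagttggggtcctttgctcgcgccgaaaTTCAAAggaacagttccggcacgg
Top2a, chr11:99024140-99024439, minus strand: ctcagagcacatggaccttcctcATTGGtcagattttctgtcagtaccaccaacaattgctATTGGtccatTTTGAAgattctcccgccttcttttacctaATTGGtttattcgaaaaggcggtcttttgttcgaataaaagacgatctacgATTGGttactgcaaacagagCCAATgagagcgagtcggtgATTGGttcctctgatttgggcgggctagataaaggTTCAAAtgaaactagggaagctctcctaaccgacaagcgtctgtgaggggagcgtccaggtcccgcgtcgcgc
Cdc25b, chr2:131186698-131186997, plus strand: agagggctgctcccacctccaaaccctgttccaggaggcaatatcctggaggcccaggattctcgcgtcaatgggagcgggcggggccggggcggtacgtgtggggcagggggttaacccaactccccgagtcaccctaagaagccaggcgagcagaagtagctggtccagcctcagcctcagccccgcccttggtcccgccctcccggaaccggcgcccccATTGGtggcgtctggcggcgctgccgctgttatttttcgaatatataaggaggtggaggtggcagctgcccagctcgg
Ccnf, chr17:24251360-24251659, minus strand: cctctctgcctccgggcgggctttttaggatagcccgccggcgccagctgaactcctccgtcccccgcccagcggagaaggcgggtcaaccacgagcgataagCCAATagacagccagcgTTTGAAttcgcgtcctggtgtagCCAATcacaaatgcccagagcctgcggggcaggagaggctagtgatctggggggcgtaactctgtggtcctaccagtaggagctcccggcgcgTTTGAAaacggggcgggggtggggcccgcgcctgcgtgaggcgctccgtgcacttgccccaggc
Cenpa, chr5:30666636-30666935, plus strand: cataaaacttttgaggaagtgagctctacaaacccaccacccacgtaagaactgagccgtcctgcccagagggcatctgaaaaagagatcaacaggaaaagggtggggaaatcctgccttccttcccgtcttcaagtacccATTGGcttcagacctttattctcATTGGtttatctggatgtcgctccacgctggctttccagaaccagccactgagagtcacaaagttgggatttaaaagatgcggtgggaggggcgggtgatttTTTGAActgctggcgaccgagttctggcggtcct

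In those windows Top2a held 2 CHR matches and 6 CCAAT matches, Smc2 held 2 and 1, and Nusap1 held neither motif. Of the lower genes, Ccnf held 2 CHR and 2 CCAAT matches, Cenpa held 1 and 2, and Cdc25b held a single CCAAT match and no CHR. Windows with and without a CHR match stand at both ends of this printed set, while Nusap1 is the only one of the 6 without CCAAT.

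Over all members, 38 windows of 35 genes were found. TTTGAA was present in 29 of the 38 (76.3%), against 17.9% of the 32851 windows of the whole table and 11.9% of the 13141 windows of genes measured on the arrays. A CHR match that starts in the last 100 bases, around the gene's start, was present in 26 of 38 (68.4%), against 4.94% of the whole table. CCAAT was present in 30 (78.9%), against 37.4%, and at least 2 CCAAT matches in 19, against 11.7%. GGCGGGAA, a form of the E2F site, was present in 0 of 38 and in 2.19% of the table, which says only that these letters are not in these windows. The motifs were searched on both strands and every match was counted, also where matches of different motifs, or of CCAAT and its reverse complement, shared end bases.

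Members above and below 0 both held the motifs. TTTGAA was found in 17 of 22 windows of members with a log2 ratio above 0 (77.3%) and in 12 of 15 of those below 0 (80.0%), and the remaining window, that of Ccnb1, held no TTTGAA and 2 CCAAT matches. CCAAT was found in 16 of 22 (72.7%) and in 13 of 15 (86.7%). Neither difference was tested. Ccna2, Cdc25c, Foxm1, Aurkb, Incenp, Tpx2, Kif20a and Smc4 had no window in the table.

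On the arrays the mitotic genes did not move as 1 block. Signals are the deposited probe-set intensities, and each gene is represented by its brightest probe set. Signals under 20.4, the median of both arrays together, were set to that floor, so where 1 array was at the floor the ratio is only a bound, written with "at least". All 42 matched genes were above the floor on at least 1 array, 36 of them on both. The other 6 passed through the IFNg array alone, so their ratios could only be above 0, and their share (6 of 42, against 7.85% of all genes) is a description. No member was at the floor on the IFNg array alone (0 of 42, against 10.2% of all genes).

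Of the 42, 7 (16.7%) passed 2-fold upward on the IFNg array, against a background of 8.82% of the 12743 genes measured on these arrays. These were Smc4, Nusap1, Tpx2, Smc2, Bub1, Top2a and Ect2. Bub1 and Ect2 passed the floor through the IFNg array alone, and of the 36 members above it on both arrays 5 were at least 2-fold higher, against 9.31% of all such genes, and 2 lower, against 4.26%. The count of 7 became 3 with a floor at the 75th percentile and 2 with the mean of all probe sets, and the count of 2 lower became 0 and 1. Cdc25b and Aurkb (4.76%) were at least 2-fold lower, against a background of 4.48%, so the lower share is near that of all genes. The other 33 lay within 2-fold. At 1.5-fold, 15 genes were higher and 12 were lower, 35.7% and 28.6% against backgrounds of 17.9% and 18.7%. Among the 15 were Bub1, Ttk, Ndc80, Kif11 and Ect2, which passed the floor through the IFNg array alone and could only be above 0. The 35.7% is therefore raised by the filter, and the share at 1.5-fold was not taken over the 36 members above the floor on both arrays.

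The median log2 ratio of the 42 genes was 0.07, and it was -0.24 for the 36 above the floor on both arrays, so it changes sign with the 6 dim genes. The median of all measured genes was -0.12. Across the 42 members the quartiles of the log2 ratio were -0.63 and 0.71, against -0.48 and 0.37 for all genes, so the median hides values on both sides. The upper quartile takes in the 6 dim genes, whose ratios could only be above 0, and quartiles of the other 36 were not taken. The SD of the log2 ratio across genes was 0.83 for the members and 0.75 for all genes. In bulk RNA, fewer dividing cells and less of a transcript per cell cannot be told apart.

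**Figure D1:**
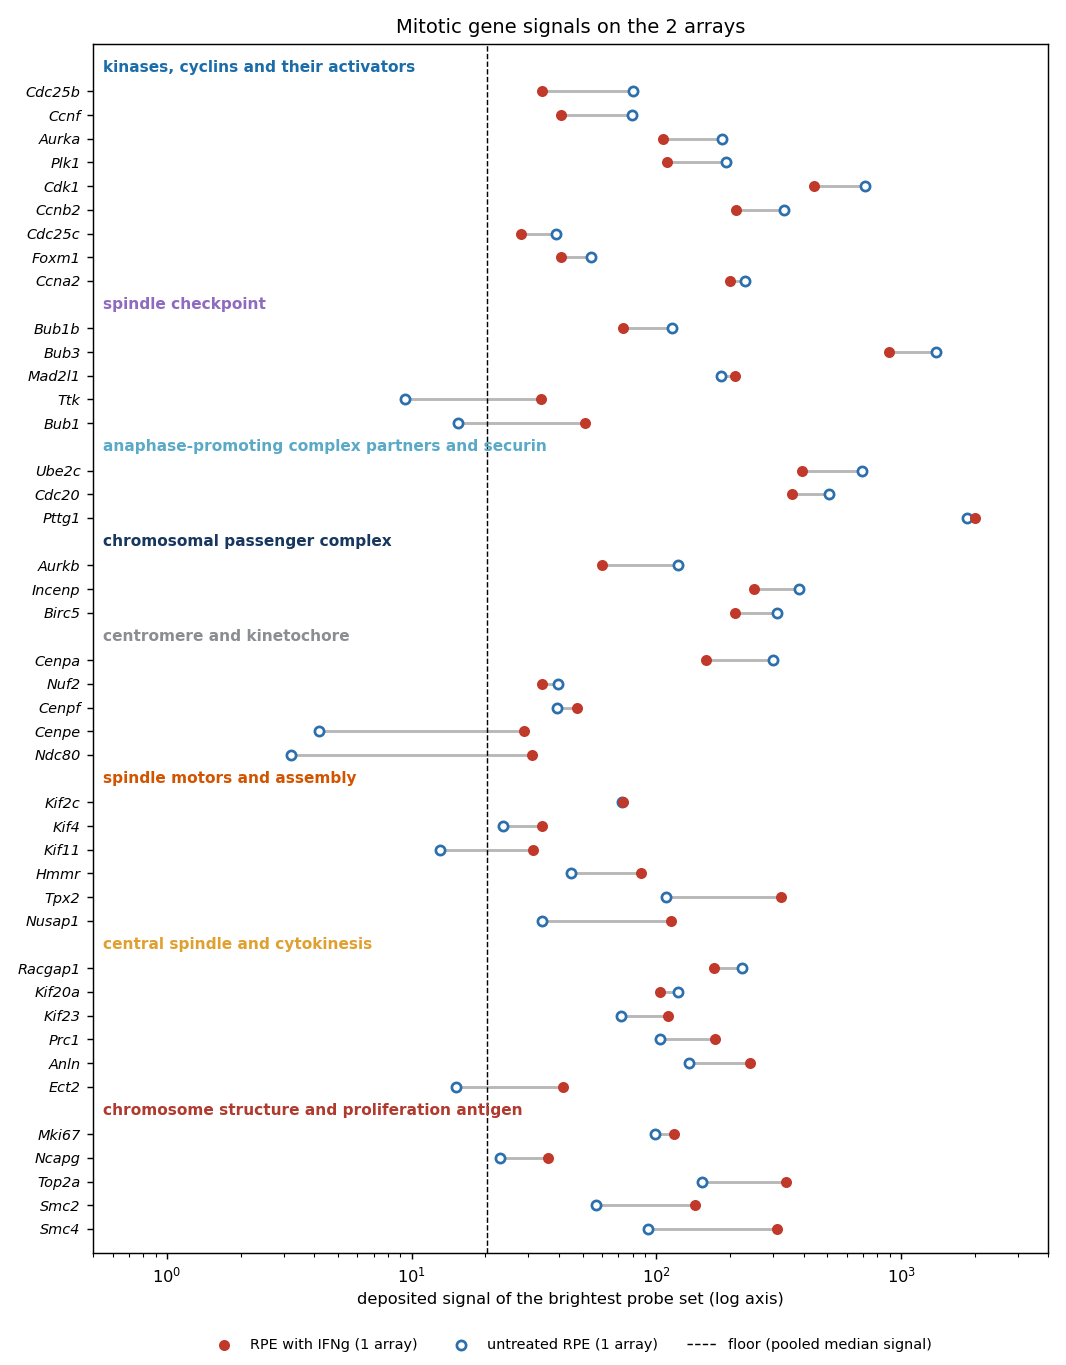
Deposited signal of each mitotic gene (rows, grouped by role) on the array of RPE with IFNg (filled points) and of untreated RPE (open points), on a log axis, 1 array each; the dashed line is the floor of 20.4. The kinases and cyclins at the top have the filled point on the left in all 9 rows, and the chromosome genes at the bottom have it on the right in all 5.

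The kinases, cyclins and their activators were lower with IFNg in all 9 measured genes by their brightest probe sets, where 57.5% of all genes have a log2 ratio below 0. Other probe sets of Ccna2, Cdc25c and Foxm1 lay above 0. Cdk1, cyclin-dependent kinase 1, had a signal of 440 with IFNg, against 713 without (log2 ratio -0.70). Its partner Ccnb2, cyclin B2, had 211 and 332 (-0.65). Each of these genes rests on a single probe set.

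The kinases upstream and beside Cdk1 followed the same direction. Plk1, which helps to activate it and later acts at centrosomes and kinetochores, had 111 with IFNg and 192 without (-0.79). Aurka, the Aurora kinase of the spindle poles, had 107 and 186 (-0.80). Both lay within 2-fold.

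Cdc25b, a phosphatase that removes the inhibitory phosphates from Cdk1, had the lowest ratio of the list. Its signal was 34.1 with IFNg and 79.9 without, 2.34-fold lower (log2 ratio -1.23), on 1 probe set, of a type that reads several transcripts. Ccnf, an F-box protein that targets other cell-cycle proteins for destruction, had 40.8 and 79.5 (-0.96), with a second, dim probe set at the floor with IFNg.

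The 3 genes left in this group had smaller ratios and probe sets that went apart. Foxm1, the transcription factor of many G2/M genes, had 40.7 and 54.2 (-0.41), with a second probe set at -0.71 and a dim one, under the floor without IFNg, at 0.44 or more. Cdc25c had 28.1 and 38.9 (-0.47), while its other probe set had 42.0 and 20.7 (1.02). Ccna2, cyclin A2, had 200.5 and 231.2 (-0.21), with another probe set at 0.43, so Cdc25c and Ccna2 have no settled direction.

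The chromosomal passenger complex, which corrects wrong attachments and acts in cytokinesis, was lower in all 3 members, where 57.5% of all genes were below 0. Aurkb, its kinase, had 60.1 with IFNg and 122.3 without, 2.04-fold lower (log2 ratio -1.03), with a second probe set at -0.78. Birc5, survivin, had 210 and 311 (-0.57). Incenp, the scaffold, had 250 and 381 (-0.61), and its other measured probe sets were at -0.51 and -1.49. The fourth subunit, Cdca8 or borealin, is no member of the list and was picked out after its value was seen. Its signals were 180 and 189 (-0.07), with further probe sets at -0.27 and -0.91.

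Among the genes that work with the anaphase-promoting complex, Ube2c, a ubiquitin-conjugating enzyme of that complex, had 395 with IFNg and 694 without (-0.82). Cdc20, the activator of that complex at the start of anaphase, had 357 and 507 (-0.51), with further probe sets at -0.86 and, where the IFNg array was at the floor, -0.84 or lower. Pttg1, the securin that is destroyed at anaphase, was the brightest member at 2012 and 1852 (0.12). Its other probe sets were at -0.38 and 0.04, so no direction can be given for it.

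The spindle checkpoint genes split. Bub3 had 896 with IFNg and 1388 without (-0.63, with a second probe set at -0.66), and Bub1b, the checkpoint kinase-like protein BubR1, had 73.3 and 115.7 (-0.66, with others at -0.12 and -0.12). Mad2l1, the protein that holds Cdc20 in check, had 210 and 184 (0.19). Bub1, a checkpoint kinase of the kinetochore, went the other way with 50.9 and 15.4, at least 2.49-fold higher, and its second probe set had 28.3 and 8.0. Ttk, the kinase that recruits the others, had 33.9 and 9.4, at least 1.66-fold higher. The members that were higher here by over 1.5-fold were thus the dim ones, below the floor without IFNg.

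At the centromere and kinetochore, Cenpa, the histone variant that marks the centromere, had 160 with IFNg and 301 without (-0.92). A dim second probe set, at the floor with IFNg, was at -0.12 or lower. The other members had signals under 50 on both arrays. Cenpf had 47.2 and 39.1 (0.27) and Nuf2 had 34.0 and 39.7 (-0.22).

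The kinetochore motor Cenpe had 28.9 with IFNg and 4.2 without, a bound of at least 1.42-fold, and Ndc80, the microtubule-binding subunit that pairs with Nuf2, had 31.1 and 3.2, a bound of at least 1.52-fold. Both stand close to the floor, where the size of a ratio is uncertain. Of the remaining Ndc80 complex subunits, picked out after their values were seen, Spc25 had a log2 ratio of 0.67 and Spc24 of -0.66.

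All 6 spindle motors and assembly factors had a log2 ratio above 0 by their brightest probe sets, where 42.5% of all genes did. Of these, Kif11 passed the floor through the IFNg array alone, so its ratio could only be above 0, and Kif2c was at 0.02. Tpx2, which binds and activates Aurora A on the spindle, had 324 with IFNg and 110 without, 2.95-fold higher (log2 ratio 1.56). Its further probe sets were at 0.84 and, for a dim one, 0.33 or more. Its partner kinase Aurka was at -0.80 on the same arrays.

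Nusap1, which bundles spindle microtubules, had 115 with IFNg and 34.2 without, 3.35-fold higher, while its second probe set did not exceed the floor on either array. Hmmr, a spindle-pole protein, had 86.4 and 44.7 (0.95), and its other measured probe sets were at 1.71 and 0.13. All 3 of its measured probe sets were on the same side of 0.

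The spindle motors had smaller ratios. Kif4, a chromosome-arm motor, had 34.2 with IFNg and 23.6 without (0.54). Kif11, the motor that pushes the poles apart, had 31.4 and 13.0, at least 1.54-fold higher, but a further probe set, at the floor with IFNg, gave a log2 ratio of -0.41 or lower, which is also its value without shared-sequence probe sets. Another, at the floor without IFNg, gave 0.19 or more. Kif2c, which shortens microtubules at the centromere, had 73.2 and 72.3 (0.02), with others at -0.29 and, at the floor with IFNg, -0.93 or lower. No direction is given for Kif11 and Kif2c.

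Of the central spindle and cytokinesis genes, 4 of 6 were higher, where 42.5% of all genes had a log2 ratio above 0. The 2 lower ones were within 1.5-fold. Anln, the actin-binding protein anillin of the cleavage furrow, had 240 with IFNg and 136 without (0.82). Prc1, which bundles the central spindle, had 173 and 104 (0.74, with another probe set at 0.49). Ect2, the exchange factor that switches on RhoA at the furrow, had 41.6 and 15.2, at least 2.04-fold higher, on 1 probe set. It passed the floor through the IFNg array alone, so its ratio could only be above 0.

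The members of centralspindlin lay on opposite sides of 0. Kif23, its motor, had 111 with IFNg and 71.6 without (0.63). Racgap1, its other subunit, had 172 and 223 (-0.38), with a second probe set at -0.50. Kif20a, a motor of the central spindle, had 104 and 123 (-0.25).

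The genes for mitotic chromosome structure were higher in all 5 members, where 42.5% of all genes were above 0. Of the 5, 3 passed 2-fold, where 8.82% of all genes did. Smc4, a core ATPase of condensin, had 312 with IFNg and 92.6 without, 3.37-fold higher (log2 ratio 1.75), the highest of the list. Its further probe sets were at 0.68 and at least 1.85. Smc2, the other core ATPase, had 143 and 56.4, 2.54-fold higher, while 4 more probe sets did not exceed the floor on either array.

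Top2a, topoisomerase II alpha, which untangles sister chromatids, had 340 with IFNg and 154 without, 2.20-fold higher, with a dim second probe set at 0.28 or more. Ncapg, a non-SMC subunit of condensin I, had 36.1 and 22.9 (0.66), while a second probe set did not exceed the floor on either array. The proliferation antigen Mki67, the gene for Ki-67, had 118 and 99.0 (0.26), within 1.5-fold. The other condensin I subunits, picked out after their values were seen, were lower. Ncapd2 was at -0.63 (a second probe set at -1.05) and Ncaph at -0.39 (a second at -0.62). The probe sets read for this complex thus lay on both sides of 0 on these 2 arrays, and no difference between its subunits was tested.

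**Figure D2:**
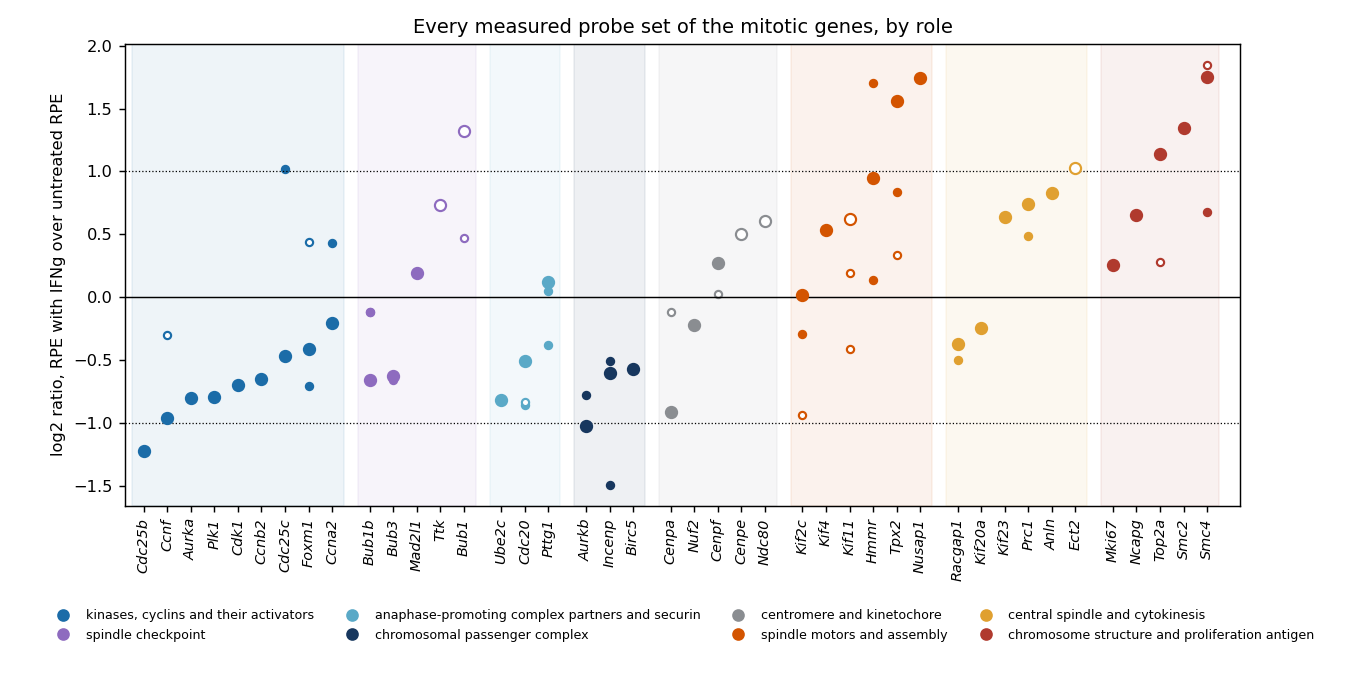
Log2 ratio of RPE with IFNg over untreated RPE (vertical axis) for each of the 73 mitotic probe sets that exceeded the floor on at least 1 array, with 1 column a gene and 1 colour a role. Large points are the probe sets used, open points have 1 array at the floor, and dotted lines mark 2-fold; 6 genes have points on both sides of 0.

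The only error estimate this design holds is that between probe sets of a gene. It had an SD of 0.49 on the log2 scale over 15 members with several probe sets above the floor on both arrays, and of 0.44 over 4419 genes of the whole array. It compares probe sets of a gene on the same 2 arrays. It therefore leaves out differences between cultures and any technical error that all probe sets of an array share. Of the members' 73 measured probe sets, 10 were at least 2-fold higher and 3 at least 2-fold lower, where 9.36% and 4.69% of all measured probe sets were. Of 21 members with several measured probe sets, 15 had all of them on 1 side of 0. The same share over all genes was not taken. Where 1 array was at the floor, the side was fixed by the array that passed, so this count is only a description. The 6 with probe sets on both sides were Ccna2, Cdc25c, Foxm1, Pttg1, Kif11 and Kif2c.

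By role, the median log2 ratios were -0.70 for the 9 kinases, cyclins and activators, -0.61 for the 3 passenger genes and -0.51 for the 3 anaphase-promoting complex partners and securin. They were 0.79 for the 6 spindle motors and assembly factors, 0.69 for the 6 cytokinesis genes and 1.14 for the 5 chromosome genes. The signs of these 6 medians were the same under every scaling, floor and probe-set rule tried, and with only the members above the floor on both arrays. The checkpoint (0.19) and kinetochore (0.27) medians were not stable, and became -0.63 and -0.22 over the members above the floor on both arrays. The roles were drawn up with earlier results of these data known, and no test compares them.

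**Figure D3:**
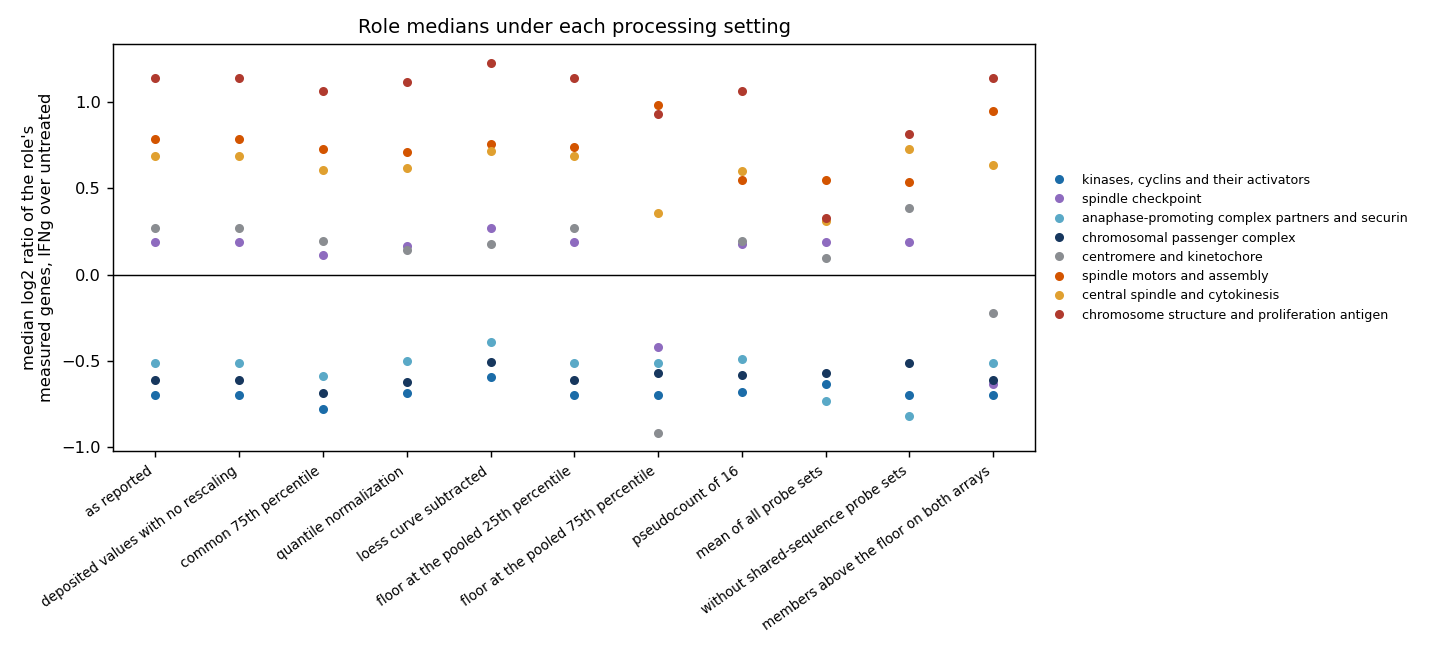
Median log2 ratio of RPE with IFNg over untreated RPE for the measured genes of each role (vertical axis), under each processing setting (horizontal axis). The kinase, passenger and anaphase-promoting complex medians stay below 0 and the spindle assembly, cytokinesis and chromosome medians above 0 in every column, while the checkpoint and kinetochore points cross 0.

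Brightness was set beside the ratio for the 36 members above the floor on both arrays. The 7 of the brightest class (mean log2 signal of 8 or more) had a median log2 ratio of -0.63, with 6 of them below 0, while the 10 of the dimmest class (under 6) had a median of 0.024, with 5 below 0. All genes of these classes above the floor on both arrays had medians of -0.19 and -0.022. Across these 36 members, the ratio and the mean log2 signal had a Pearson correlation of -0.17 (Spearman -0.19), and across all 10441 such genes of -0.03 (-0.05). These points share the 2 arrays, and the part of brightness in the split by role was not tested. Promoter GC content had almost no relation with the ratio across 34 members, with a Pearson correlation of 0.03.

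**Figure D4:**
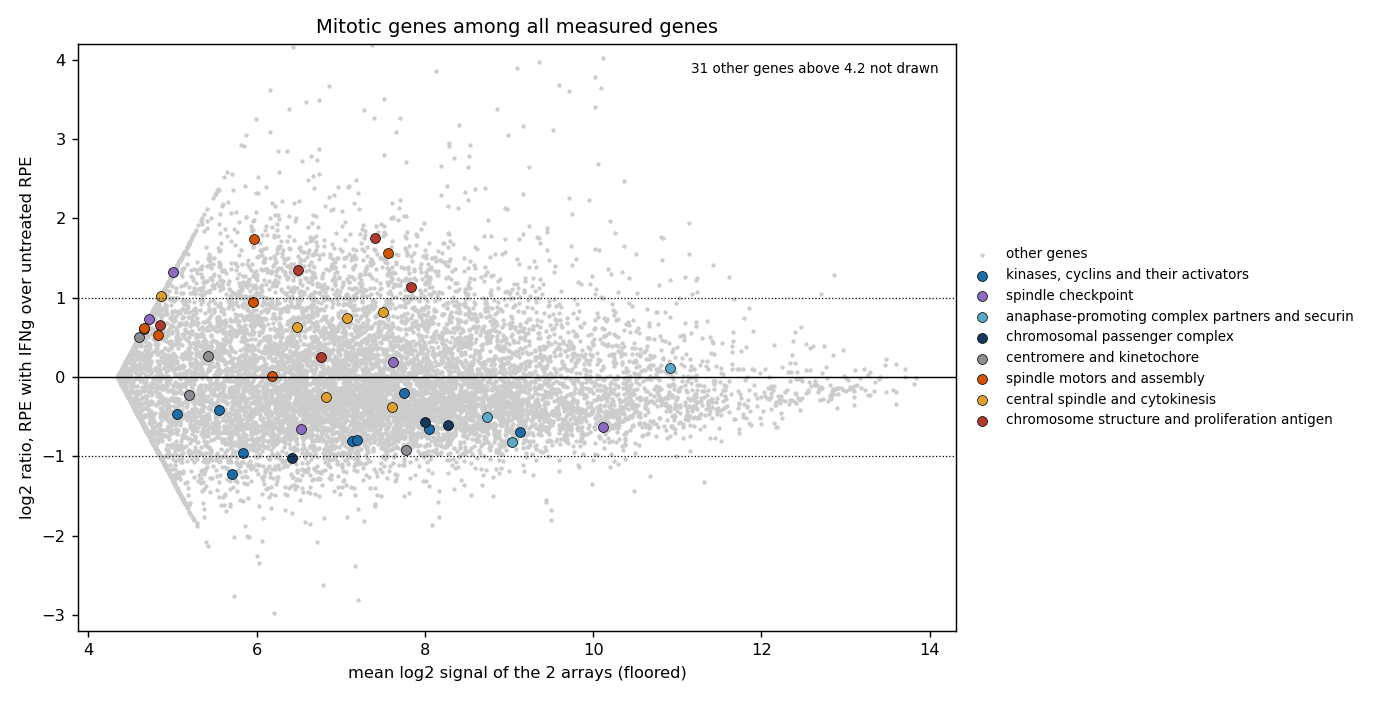
Log2 ratio of RPE with IFNg over untreated RPE (vertical axis) against the mean floored log2 signal (horizontal axis) for 12743 measured genes in grey and the 42 mitotic genes in the colour of their role; dotted lines mark 2-fold and 31 other genes above 4.2 are not drawn. The mitotic genes lie within the cloud of all genes, between -1.23 and 1.75.

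Further genes of the cell cycle were read from lists drawn up by function. Of 61 measured genes among 68 further mitotic ones, 4 were at least 2-fold higher, 2 at least 2-fold lower and 55 within 2-fold (6.56% and 3.28%, under both backgrounds), and their median log2 ratio was -0.07. Cenpn, a centromere protein that reads the Cenpa nucleosome, had 43.3 with IFNg and 120.4 without, 2.78-fold lower, with a second probe set at -1.38. Ska1, a kinetochore subunit, had 16.8 and 48.4, at least 2.37-fold lower, with a dim probe set at 0.07. Sgo1, shugoshin, which guards centromeric cohesion, had 47.8 and 8.1, at least 2.34-fold higher, and Cenpk, of the inner kinetochore, had 63.4 and 27.5 (2.31-fold higher), but another probe set at -0.49. So Cenpk and Ska1 have no settled direction.

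The subunits of the anaphase-promoting complex and its cofactors had a median of -0.45 over 16 genes. Only Cdc27 passed 2-fold, with 159 on the IFNg array and 51.6 on the untreated one (3.08-fold higher, with further probe sets at 0.83, 0.18 and 0.35). Of the 16, 10 (62.5%) had a log2 ratio below 0, a share near the 57.5% of all genes.

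DNA replication and S-phase genes had a median of -0.31 over 39 measured genes, with 6 at least 2-fold lower (15.4%, against 4.48% of all genes) and 2 at least 2-fold higher (5.13%, against 8.82%). Mcm2, of the replicative helicase, had 96.5 with IFNg and 297 without (3.08-fold lower, with a second probe set at -1.20). The flap endonuclease Fen1 had 103 and 287 (2.80-fold lower), although another probe set was at 0.38. Dbf4, the regulatory subunit of the kinase that activates this helicase, had 124.5 and 45.4 (2.74-fold higher), and the polymerase gene Pole 27.6 and 62.8 (2.28-fold lower). No difference between this list and the mitotic one was tested.

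Among regulators of the late cell-cycle promoters, Rbl1, the pocket protein p107 of DREAM, had 134 with IFNg and 43.1 without (3.11-fold higher, with a second probe set, at the floor without IFNg, at 0.71 or more). Lin54, the DREAM subunit that binds the CHR, had 43.7 and 7.9, at least 2.14-fold higher, with a second probe set at 0.55 or more. Mybl2, B-Myb, which joins MuvB to activate G2/M genes, was dim, with 14.1 and 31.0 (a log2 ratio of at most -0.60). Of the 17 measured genes of this list, 2 were at least 2-fold higher (11.8%, against 8.82% of all genes) and 0 were at least 2-fold lower (against 4.48%). The median was -0.24, and it turned to 0.062 without shared-sequence probe sets.

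Of 22 measured G2/M brakes and inhibitors of cyclin-dependent kinases, 3 were at least 2-fold lower (13.6%, against 4.48% of all genes) and 1 was at least 2-fold higher (4.55%, against 8.82%), with a median of -0.23. Plk3, a stress-responsive polo-like kinase, had 18.4 with IFNg and 89.3 without, at least 4.38-fold lower. Pkmyt1, which holds Cdk1 inactive, had 29.3 and 82.5 (2.82-fold lower, with a second probe set, at the floor with IFNg, at -0.75 or lower), and the inhibitor Cdkn1c had 308 and 716 (2.32-fold lower). Ccng1, cyclin G1, a target of p53, had 1817 and 592 (3.07-fold higher, with others at 0.53 and 1.01). Cdkn1a, the inhibitor p21, had 1889 and 2906, a log2 ratio of -0.62 and within 2-fold, with a second probe set at -0.175.

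**Figure D5:**
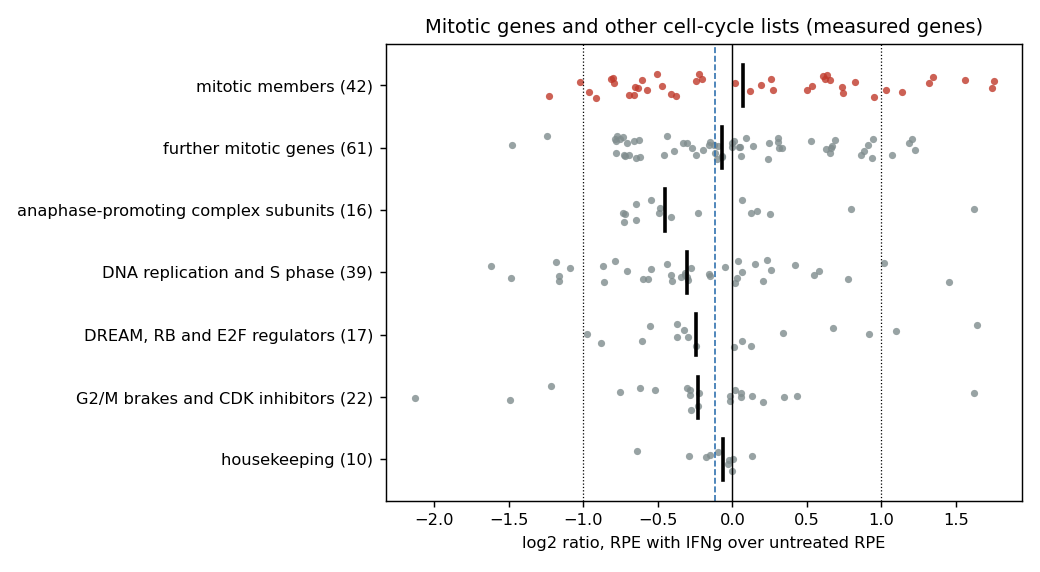
Log2 ratio of RPE with IFNg over untreated RPE (horizontal axis) for the measured genes of the mitotic list (red) and of the other cell-cycle lists and housekeeping genes (grey), 1 point a gene, with the median as a black bar. The dashed line is the median of all genes (-0.12) and dotted lines mark 2-fold; the mitotic median is 0.07 and the anaphase-promoting complex median -0.45.

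As a check of the treatment, Cd274, the gene for PD-L1, had 420 with IFNg and 13.6 without, at least 20.6-fold higher, and all 7 measured genes of a short IFNg response list passed 2-fold. Housekeeping genes had a median log2 ratio of -0.06 over 10 genes. Markers of RPE and of other cell types were read as well. Rpe65 and Best1, defining genes of mature RPE, were at the floor on both arrays. Of the 10 measured RPE markers 7 (70.0%) were below 0, against 57.5% of all genes, with a median of -0.41. At least 2-fold lower with IFNg were Ttr, Tyrp1, Rdh5 and Rlbp1 (40.0%, against 4.48% of all genes). Further probe sets of Tyrp1 were at -1.45 or lower, at the floor with IFNg, and, for a dim one, at 0.33 or more. Krt18 (0.81), Mitf (0.59) and Krt8 (0.02) were above 0, the last with others at -0.08 and -0.17. The 12 RPE markers summed to 4302 with IFNg and 4023 without, and without Krt18 (2446 and 1390) the other 11 summed to 1856 and 2633. The 10 fibroblast markers summed to 57701 with IFNg and 63214 without. The 9 macrophage markers summed to 771 and 1154, of which Lyz2 alone had 486.5 and 660.8, while Itgam and Aif1 were at the floor on both arrays. For the 6 endothelial markers the sums were 435 and 606, of which Emcn alone had 307.7 and 406.0. For the 4 matched Schwann and melanocyte markers the sums were 87.6 and 137, with 2 of them at the floor on both arrays. For the 8 matched T, B and NK markers they were 70.7 and 63.6. Of these 8, 7 were at the floor on both arrays, and the measured one, Cd8a, was at -0.62. All these sums are of deposited signals and include those under the floor. Which of these cells carried the mitotic transcripts was not tested.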

How the data were processed

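Total RNA of 2 primary mouse RPE cultures was amplified from an oligo-dT primer, labelled with biotin and hybridised to 1 array each, per the labels' protocols. The deposited values give an intensity per probe set, not logged, for 45101 probe sets, with medians of 20.8 (IFNg) and 20.1 (untreated), and the mean after trimming 2% at each end was 100 on both arrays. How probe sets were summarised, with what background correction and build, was not given in the sources used here.

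The 64 control probe sets were left out, the arrays were brought to a common 2% trimmed mean, signals under the pooled median of 20.4 were raised to that value, and ratios were formed as log2. Gene names came from GEO's platform annotation, in which 34945 probe sets have 1 gene, 932 several and 9160 none, and the Entrez symbols of all 99 member probe sets equalled their names in the RefSeq table of GRCm38.p6. Only probe sets with 1 gene were used. A gene counted as 2-fold higher or lower when its brighter array was above the floor. No test was made on 1 array per group, and precision is limited by the number of arrays. No genome build is named for the signals, so coordinates are those of the RefSeq promoter table alone.

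The named genes were all members, of each companion list up to 4 genes with the largest ratio past 2-fold, and Cd274, Cdkn1a and Mybl2. Outside that rule, Cdca8, Spc24, Spc25, Ncapd2 and Ncaph, and the markers of cell types named in the text, were picked after their values were seen. An item of that rule is not reported here. The members and lists were chosen with earlier results of these data known. The alternatives were a loess curve, quantile normalization, scaling to the 75th percentile or not at all, a floor at either the 25th or the 75th percentile of both arrays, 16 added to each signal, the mean of all probe sets, no shared-sequence probe sets (those whose type reads several transcripts), and thresholds of 1.5-fold and 3-fold. The procedure was tested on simulated data. The changes put in were larger than 2-fold and only in genes brighter than many members. That simulation therefore does not bear on calls near 2-fold or near the floor. Tools were matplotlib 3.10.9, statsmodels 0.14.6, scipy 1.17.1, pandas 2.3.3, numpy 2.4.6 and Python 3.11.15.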

Additional observations from a re-analysis of the deposited data

How the results depend on the processing

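No paired analysis was possible because each group holds 1 array and the labels number no replicates, so leaving out each replicate in turn was not run. Dim signals limit the ratios: 26 of the members' 99 probe sets did not exceed the floor on either array. For single members a sign change was seen for Kif2c (75th percentile, quantile, mean of probe sets, no shared-sequence probe sets), Kif11 (25th percentile floor, pseudocount, no shared-sequence probe sets), Ccna2, Cdc25c and Pttg1 (mean of probe sets), none of which was past 2-fold. Taking the deposited values without rescaling changed no sign and no call among the members. The cause of the shifts below was not tested, beyond what each setting leaves out or takes in by its construction. The mean of probe sets takes in those at the floor on both arrays, whose log2 ratio is 0, and this draws a gene's mean toward 0.

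Member genes at least 2-fold lower numbered 2 as reported, 0 with the 75th percentile floor, 0 with the pseudocount of 16, 1 with the mean of probe sets, 0 without shared-sequence probe sets (32 members left), 12 at 1.5-fold and 0 at 3-fold. Those at least 2-fold higher numbered 7, then 3 with the 75th percentile floor, 2 with the mean of probe sets, 15 at 1.5-fold and 2 at 3-fold. Counts that differed by up to 1.5-fold were taken as no change, here and below. Among such shifts, lower members were 3 with the 75th percentile scaling, quantile normalization and loess. Higher members were 10 with the 25th percentile floor, 8 with the pseudocount, 6 with those 3 normalizations and 5 without shared-sequence probe sets. Their median log2 ratio of 0.07 became -0.094 and -0.31 with the 25th and 75th percentile floors, -0.071 with the pseudocount and -0.24 over genes above the floor on both arrays, a setting chosen after seeing the data.

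Shifts of a median up to 0.1 were counted as no change, and role medians moved by more as follows. The 75th percentile floor gave -0.42 for the checkpoint, -0.92 for the kinetochore, 0.98 for spindle assembly, 0.36 for cytokinesis and 0.93 for chromosome structure. Genes above the floor on both arrays gave -0.63, -0.22 and 0.95 for the first 3 of these. The mean of probe sets gave 0.10 for the kinetochore, 0.55 for spindle assembly, 0.31 for cytokinesis, 0.33 for chromosome structure and -0.73 for the anaphase-promoting complex partners. Without shared-sequence probe sets these partners were at -0.82, the kinetochore at 0.39, spindle assembly at 0.54 and chromosome structure at 0.81. The loess curve gave -0.59 for the kinases, -0.50 for the passenger genes and -0.39 for the partners, the pseudocount 0.55 for spindle assembly and quantile normalization 0.14 for the kinetochore.

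Companion medians moved likewise. Anaphase-promoting complex subunits were at -0.31 (loess) and -0.20 (mean of probe sets), replication genes at -0.16 (mean) and -0.15 (no shared-sequence probe sets), and regulators at -0.13 (loess), -0.12 (25th percentile floor) and 0.062 (no shared-sequence probe sets). Brakes were at -0.084 (loess) and -0.12 (mean), IFNg response genes at 5.39 (loess), 4.88 (75th percentile floor) and 5.09 (pseudocount), and housekeeping genes at 0.047 (loess).

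Companion counts, higher then lower, moved too. At 1.5-fold they were 14 and 16 for further mitotic genes, 2 and 5 for anaphase-promoting complex subunits, 4 and 3 for regulators, with 11 lower replication genes, 5 lower brakes and 1 lower housekeeping gene. At 3-fold they were 0 and 0 for further mitotic genes, 0 and 1 for replication, with 1 higher regulator and 1 lower brake. The 25th percentile floor gave 11 and 5 for further mitotic genes, 1 and 1 for regulators and 2 higher brakes, and the 75th gave 0 and 0 for further mitotic genes, 0 higher genes in replication, regulators and anaphase-promoting complex subunits, and 1 lower brake. The pseudocount gave 1 and 1 for further mitotic genes, 1 and 3 for replication and 1 higher regulator, and the mean of probe sets 2 and 1, 1 and 3, and 0 higher regulators. The 75th percentile scaling and quantile normalization each gave 1 higher replication gene and 1 lower regulator, and loess 1 and 1 regulators. Without shared-sequence probe sets there were 2 higher anaphase-promoting complex subunits and 0 higher brakes, and above the floor on both arrays 2 and 1 further mitotic genes and 1 higher regulator.

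Of all genes, 1124 were higher and 571 lower as reported, 2258 and 2059 with the 25th percentile floor, 574 and 163 with the 75th, 591 and 357 with the mean of probe sets, 2287 and 2381 at 1.5-fold and 336 and 59 at 3-fold. The settings not named here changed these counts by less than 1.5-fold.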
